A study of Mus musculus with 9 samples.

Results

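The genes of oxidative phosphorylation were taken from a count table of mouse mammary tumors as the protein-coding genes with symbols that begin with Nduf, Uqcr, Atp5 or any of Cox4 to Cox8, other than *Cox6a2*, together with *Sdha*, *Sdhb*, *Sdhc*, *Sdhd* and the protein genes of the mitochondrial chromosome, which carry the prefix mt-. Of 35275 genes in the table, 105 met this rule, and 92 of these are encoded in the nucleus and 13 on the mitochondrial chromosome. The identifiers in the table end before those of 15196 genes of the GENCODE M21 annotation, 554 of them protein coding, which were not analysed here. Of these, 1 meets the rule, a second gene model named *Atp5o* that overlaps the member of that name. The nuclear genes are 36 subunits of complex I, 8 assembly factors of complex I, 4 subunits of complex II, 8 of complex III, 19 of complex IV, 16 of complex V and *Atp5s*, which was counted apart from the subunits. The mitochondrial genes are 7 subunits of complex I, 1 of complex III, 3 of complex IV and 2 of complex V.

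The tumors came from Brca1Co/Co;MMTV-Cre;p53+/- mice, and this genotype was the same in all 3 groups. The MMTV promoter drives Cre mainly in the mammary epithelium. The state of *Brca1* and of the remaining p53 allele in the tumor cells was not tested. Mice received saline, free talazoparib (i.v. TLZ) or talazoparib in a nano-liposome (NanoTLZ). Talazoparib inhibits the DNA repair enzyme PARP, and both forms were given intravenously as 5 doses of 0.33 mg/kg at a rate of 3 per week. Each group held 3 tumors, each of which was 1 replicate, so that p-values measure the spread between these tumors, and tumors given empty nanoparticles were not analysed here. The age of each mouse was not given in the sources used here. Total counts were 19747343, 21053253 and 21194980 in saline tumors 1, 2 and 3, 20617174, 18681830 and 18343874 in i.v. TLZ tumors 1, 2 and 3, and 20330927, 17538380 and 18665722 in NanoTLZ tumors 1, 2 and 3. Values of the 3 tumors of a group are listed in this order throughout. Levels are CPM, the counts relative to library size after scaling by the trimmed mean of M-values (TMM). The luminal markers *Krt8* (738 to 2623 CPM), *Krt18* (499 to 1867 CPM) and *Epcam* (604 to 1368 CPM) were present in all 9 tumors. They show epithelium but cannot tell a mammary tumor from other epithelium. *Ltf*, another luminal marker, ran from 11.9 CPM in i.v. TLZ 2 to 5835 CPM in saline 1.

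Oxidative phosphorylation takes place in the inner mitochondrial membrane, where complexes I and II accept electrons from NADH and succinate, complex III passes them to cytochrome c, complex IV passes them on to oxygen, and complex V uses the proton gradient formed on the way to make ATP. Complexes I, III, IV and V are mosaics of subunits from the nucleus and from the mitochondrial chromosome, and complex II is encoded in the nucleus alone. The mitochondrial chromosome is transcribed as long precursors that are then divided into separate transcripts, so its genes share promoters. The genes of the nuclear subunits lie on many chromosomes and are transcribed separately.

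Within the saline group, tumors 1 and 3 stood apart in these genes, and values without them are given beside the shares, ratios, medians and fold changes that they turned or moved most. For the sums by complex the direction without them is given. The deviation of a gene in a tumor was taken as its log2 CPM minus the mean of the other 8 tumors. In saline 1 the median deviation of the 89 nuclear members that passed the filter on low counts was -0.76, and 75 of the 89 deviations were negative. The median over 14081 other protein-coding genes in that tumor was 0.00. Deviations in saline 1 followed transcript length, in the members and in other genes. For transcripts under 600 bases the median was -1.40 over 29 nuclear members and -0.77 over 231 other protein-coding genes. From 600 to 1000 bases it was -0.77 over 27 members and -0.53 over 807 other genes, and from 1000 to 2000 bases -0.16 over 27 members and -0.27 over 3299 other genes. Above that length the sign turned, with 0.16 over 6 members of 2000 to 4000 bases, 0.04 over 5752 other genes of that length and 0.31 over 3992 other genes of at least 4000 bases. The TMM factor of saline 1 was 0.886, against 0.981 to 1.05 in the other 8 tumors.

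Saline 3 deviated the other way, with a median of 0.29 over the nuclear members and 68 of 89 deviations positive, and unevenly across chromosomes. On chromosome 13 the median deviation of saline 3 was 1.23 over 7 members (*Sdha*, *Ndufs4*, *Ndufs6*, *Ndufaf2*, *Uqcrb*, *Uqcrfs1* and *Cox7c*) and 0.60 over 520 other protein-coding genes of that chromosome. Saline 2 was low there, at -0.48 over the 7 members and -0.65 over the other genes. Members and other genes of saline 3 were both high on chromosomes 6 (1.15 over 4 members and 0.54 over 702 other genes), 5 (1.05 over 3 members, 0.46 over 886 other genes), 10 (0.91 over 6 members, 0.65 over 656 other genes) and X (0.82 over 3 members, 0.50 over 457 other genes). On chromosomes 15, 7 and 16 the members were at 0.76, 0.71 and 0.62 while the other genes were at 0.09, 0.12 and 0.10, and on chromosome 8 the members were at 0.15 and the other genes at -0.37. Members and other genes of saline 3 were both low on chromosomes 17 (-0.24 and -0.52), 19 (-0.44 and -0.43) and 4 (-0.17 and -0.49). The median of the members exceeded that of the other genes on 17 of the 19 chromosomes that hold tested nuclear members. Chromosome shifts were not limited to saline 3. The other genes were at -0.84 on chromosome 16 in i.v. TLZ 2, and at -0.50 and -0.49 on chromosomes 3 and 6 in i.v. TLZ 3. Other tumors had shifts of similar size in the nuclear members, with a median of 0.32 and 77 of 89 positive in NanoTLZ 2, and -0.21 and 68 of 89 negative in i.v. TLZ 3. The 12 mitochondrial members that passed the filter all had negative deviations in saline 3, with a median of -0.26. All were negative in NanoTLZ 3 too, at -0.48, while 11 of 12 were positive in i.v. TLZ 2, at 0.41, and in NanoTLZ 1, at 0.27.

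**Figure D1:**
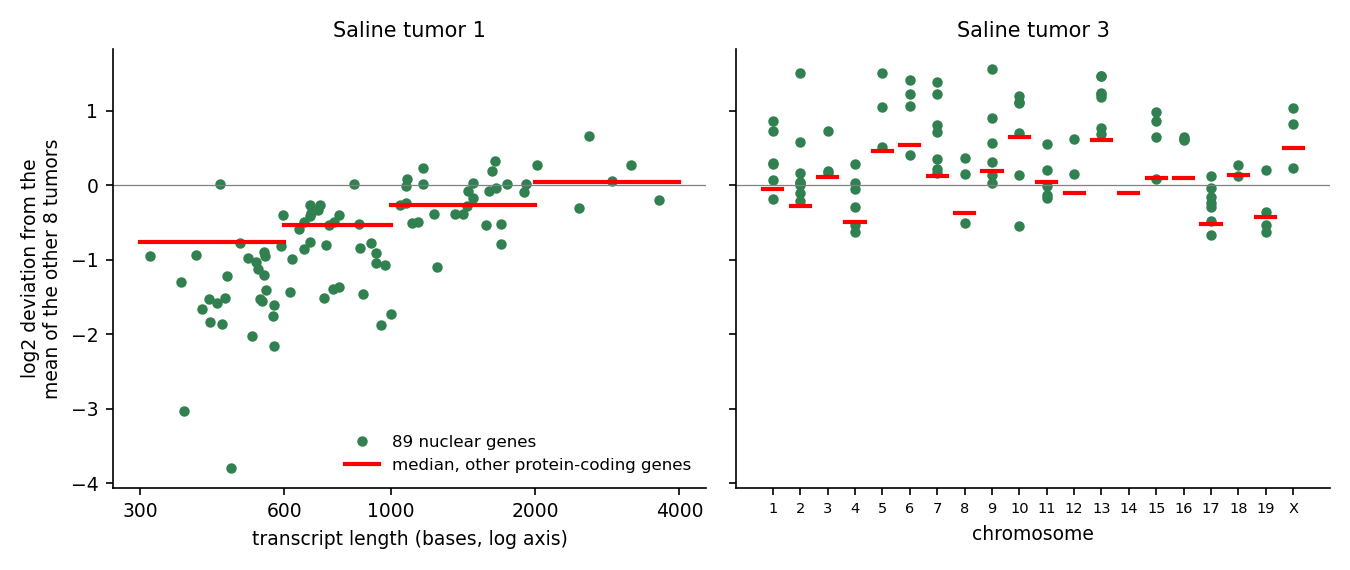
Log2 deviation of each of the 89 nuclear genes (points) from the mean of the other 8 tumors, in saline tumor 1 against transcript length in bases on a log axis (left) and in saline tumor 3 by chromosome (right), with the median of the other protein-coding genes of each length class or chromosome as red bars. Short transcripts lie lowest in saline 1 (median -1.40 under 600 bases), and the 7 genes on chromosome 13 have a median of 1.23 in saline 3.

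The mitochondrial genes differed widely in level. Per kilobase of transcript, the mean over the 9 tumors was 5263 CPM for *mt-Co1*, 2988 for *mt-Nd1*, 2858 for *mt-Cytb*, 1242 for *mt-Nd2*, 1041 for *mt-Nd5*, 909 for *mt-Nd4* and 830.1 for *mt-Nd6*. The other 6 were far lower on the same scale, with 20.2 CPM per kilobase for *mt-Co2*, 15.3 for *mt-Co3*, 11.6 for *mt-Atp6*, 3.47 for *mt-Nd3*, 3.05 for *mt-Nd4l* and 0.303 for *mt-Atp8*. Every tumor showed this break between *mt-Nd6* and *mt-Co2*. Complexes I and IV held genes on both sides of it, and both genes of complex V lay on the low side.

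Of the 6 low genes, 5 have near-identical copies in the nuclear genome over nearly their whole transcript, and *mt-Atp8* has none by the rule used. Only annotated transcripts were searched. A copy of *mt-Atp8* outside them was not tested, although this gene starts between *mt-Co2* and *mt-Atp6*, whose copies lie close together on chromosome 1. A copy was counted where a transcript of another gene matched over at least 100 bases with at least 98% identity. Such copies covered 99.9% of the *mt-Co3* transcript, 99.6% of *mt-Co2* and *mt-Atp6*, 99.1% of *mt-Nd3* and 99.0% of *mt-Nd4l*, all 5 matched by unprocessed pseudogenes on chromosome 1. They also covered 63.6% of *mt-Nd4* and 31.3% of *mt-Co1*, and none of *mt-Nd1*, *mt-Nd2*, *mt-Nd5*, *mt-Nd6* and *mt-Cytb*. The copies had counts of their own. *Gm28438*, the copy of *mt-Nd3*, had 136 to 248 counts per tumor against 9 to 33 for *mt-Nd3* itself. *Gm28661*, *Gm28437* and *Gm10925*, which match *mt-Co2*, *mt-Co3* and *mt-Atp6*, had 215 to 359, 144 to 327 and 186 to 358 counts. How reads with more than 1 match were counted was not given in the sources used here, so the levels of *mt-Co2*, *mt-Co3*, *mt-Atp6*, *mt-Nd3* and *mt-Nd4l* are uncertain, and to a lesser degree those of *mt-Nd4* and *mt-Co1*.

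The stretches below show how little separates a mitochondrial gene from its copy. The first pair is the start of the coding sequence of *mt-Nd3* (GRCm38, chrM:9459-9501, plus strand, its only exon) and the matching stretch of the pseudogene *Gm28438* (chr1:24613077-24613119, minus strand, exonic). Over the whole match of 345 bases they differ at 1 base, marked in capitals, T3C, counted from 1 at the 5′ end of the printed stretch.
mt-Nd3: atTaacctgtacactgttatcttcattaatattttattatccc
Gm28438: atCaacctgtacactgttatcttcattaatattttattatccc
The next pair is from the coding sequence of *mt-Co1* (chrM:6390-6433, plus strand, its only exon) and the pseudogene *Gm29216* (chr1:24616145-24616188, minus strand, exonic), which had 94 to 238 counts per tumor. Here 1 base differs over a match of 483 bases, A4T, again in capitals.
mt-Co1: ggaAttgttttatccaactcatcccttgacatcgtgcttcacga
Gm29216: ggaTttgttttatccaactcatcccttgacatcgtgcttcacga

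**Figure D2:**
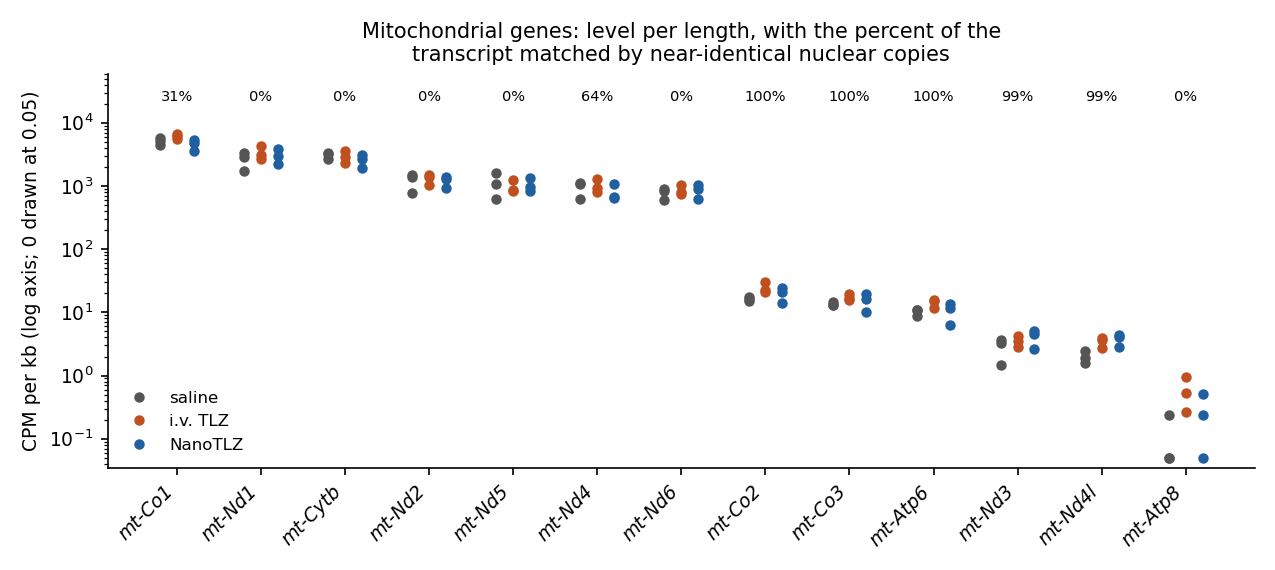
Level of the 13 mitochondrial genes in each tumor (points, colored by group) in CPM per kilobase on a log axis, with a count of 0 drawn at 0.05 and the percent of each transcript that near-identical copies cover written above. The means of the 7 genes from *mt-Co1* to *mt-Nd6* lie between 830.1 and 5263, and those of the other 6 between 0.303 and 20.2.

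Mitochondrial transcripts made up 1.97%, 1.98% and 1.51% of all counts in the saline tumors, 1.82%, 2.29% and 2.16% after i.v. TLZ, and 2.0%, 2.04% and 1.40% after NanoTLZ. The lowest values were saline 3 and NanoTLZ 3, the highest i.v. TLZ 2 and 3, and the 3 groups overlapped. Wilson 95% intervals reached at most 0.00679 percentage points to either side of these shares. Such intervals, and the floors given for counts of 0, cover counting error only. Group means were 1.82 ± 0.268% for saline, 2.09 ± 0.241% for i.v. TLZ and 1.82 ± 0.358% for NanoTLZ (mean ± SD, n = 3). The log2 difference from saline was 0.21 for i.v. TLZ (0.08 without saline 3, 0.30 without i.v. TLZ 1) and -0.01 for NanoTLZ (-0.14 without saline 3, 0.16 without NanoTLZ 3), against a spread within groups of 0.240 (SD of log2 shares). *mt-Co1* alone gave 37.0% to 47.3% of the mitochondrial counts. The low genes from *mt-Co2* to *mt-Atp8* added little to this sum, such as 181 to 371 counts for *mt-Co2* against 106375 to 189421 for *mt-Co1*. The shares, and the ratios below, are therefore in effect those of the genes from *mt-Co1* to *mt-Nd6*. How many reads of the low genes were lost to their copies was not tested.

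The 92 nuclear genes together made up 0.496%, 0.907% and 1.12% of counts in the saline tumors, 0.814%, 0.894% and 0.709% after i.v. TLZ, and 0.767%, 1.03% and 0.782% after NanoTLZ, with Wilson 95% intervals of at most 0.00473 percentage points to either side. Saline 1 was the lowest of the 9 tumors and saline 3 the highest, so that the saline group spanned both treated groups. Group means were 0.842 ± 0.319%, 0.806 ± 0.0927% and 0.860 ± 0.148% for saline, i.v. TLZ and NanoTLZ (mean ± SD, n = 3). The log2 difference from saline was 0.01 for i.v. TLZ, -0.33 without saline 1 and 0.26 without saline 3. For NanoTLZ it was 0.10, -0.24 without saline 1 and 0.35 without saline 3. The direction of the nuclear sum after either treatment thus turned on which saline tumor was kept.

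The ratio of mitochondrial to nuclear counts was 3.97, 2.18 and 1.34 in the saline tumors, 2.24, 2.56 and 3.05 after i.v. TLZ, and 2.61, 1.98 and 1.79 after NanoTLZ. Saline 1 and saline 3 held the highest and the lowest ratio of all 9 tumors. The log2 difference from saline was 0.20 for i.v. TLZ, -0.18 without saline 3 and 0.60 without saline 1. For NanoTLZ it was -0.11, -0.49 without saline 3 and 0.30 without saline 1, against a spread within groups of 0.497. Between the treated groups, NanoTLZ lay 0.31 log2 units below i.v. TLZ (-0.31), with a range of -0.46 to -0.19 over the tumors left out in turn. In a bulk tumor, fewer cells of a type and less RNA per cell cannot be told apart.

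**Figure D3:**
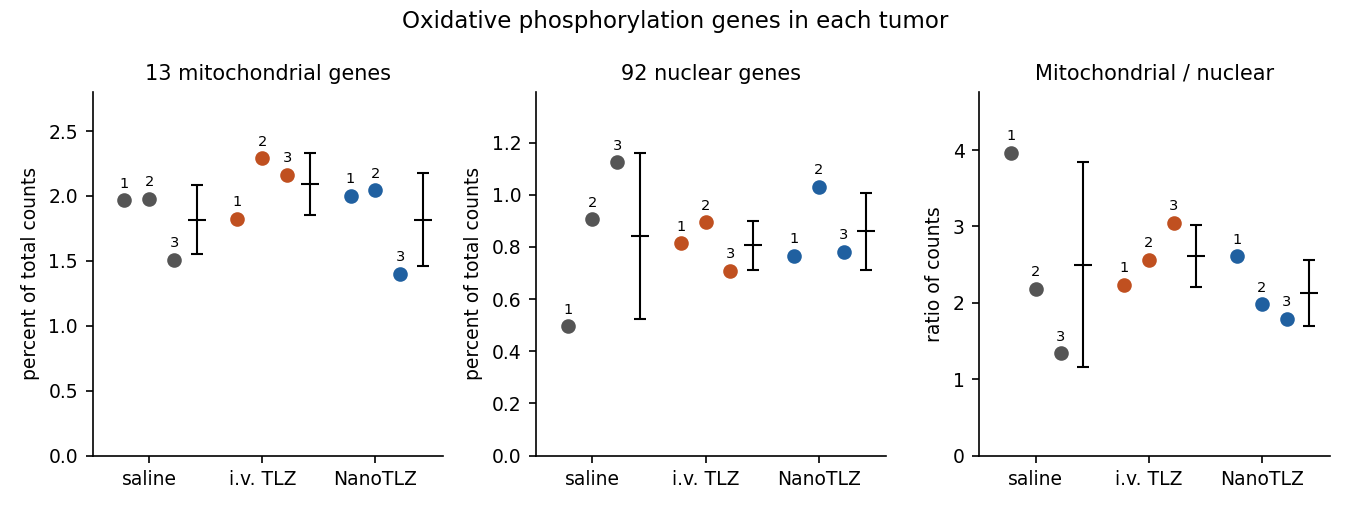
Percent of total counts in the 13 mitochondrial genes (left) and the 92 nuclear genes (middle), and the ratio of the former to the latter (right), in each tumor, with points numbered by replicate and bars for the mean and SD of 3 tumors. Saline 1 (3.97) and saline 3 (1.34) bracket the ratios of the other 7 tumors.

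Gene by gene, 101 of the 105 members passed the filter on low counts, 89 nuclear and 12 mitochondrial. The 4 others were *mt-Atp8* and the complex IV isoforms *Cox7b2*, *Cox8b* and *Cox8c*. Tests were those of edgeR (quasi-likelihood, Benjamini-Hochberg adjustment over 15821 genes), and log2 fold changes are given ± SE. The SE comes from a fit to all 9 tumors, 3 per group. Its spread is pooled over the groups and drawn toward that of other genes, so it does not describe the groups compared alone. The comparisons of i.v. TLZ and of NanoTLZ with saline share the 3 saline tumors.

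With i.v. TLZ against saline, 0 of the 101 members passed an adjusted p of 0.05, and 0% of all tested genes did. At an unadjusted p under 0.05, 2 members were higher (*Cox6b2* and *Ndufa4l2*; 4.91% of all tested genes) and 1 was lower (*Atp5o*; 5.47% of all tested genes). DESeq2 called 0 members by adjusted p, where it called 201 of all 15821 genes, and gave 2 higher and 1 lower unadjusted, against 5.94% and 6.19% of all genes by that tool. Fitted on these 2 groups alone, DESeq2 called 0 members and 79 of 15220 genes. With saline 1 left out, 0 were higher and 6 lower unadjusted, against 4.53% and 5.83% of all tested genes. With saline 2 left out 4 were higher and 0 lower (7.49% and 8.56% of all genes), and with saline 3 left out 5 were higher and 0 lower (5.35% and 4.19%). Without i.v. TLZ 1 (3.86% and 3.52%) or without i.v. TLZ 2 (4.49% and 4.99%), 1 was higher and 2 were lower.

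With NanoTLZ against saline, 0 members passed by edgeR or DESeq2, where 0.00632% of all tested genes did by edgeR and 102 genes by DESeq2, and 0 were higher (3.51% of all genes by edgeR, 4.77% by DESeq2) or lower (5.49% and 5.97%) at an unadjusted p under 0.05 by either tool. Fitted on these 2 groups alone, DESeq2 called 0 members and 160 of 15236 genes. Without saline 1 the unadjusted counts were 0 higher and 4 lower (3.45% and 6.5% of all genes), and without saline 2 (6.94% and 8.66%) or without saline 3 (3.39% and 3.26%) they were 3 higher and 0 lower. Leaving out NanoTLZ 1 (2.2% and 2.71% of all genes) or any 1 of the i.v. TLZ tumors (3.54% to 4.11% and 4.73% to 5.75%) gave 0 higher and 1 lower. NanoTLZ against i.v. TLZ gave 0 members by edgeR and DESeq2 (0% of all genes by edgeR, 4 genes by DESeq2), and 0 higher (0.449% of all genes by edgeR, 0.718% by DESeq2) or lower (1.23% and 1.53%) unadjusted with either tool. Fitted on these 2 groups alone, DESeq2 called 0 members and 17 of 15246 genes. With the mean of both treated groups against saline, 0 members passed by either tool (0.019% of all genes by edgeR, 278 genes by DESeq2). Unadjusted, 1 was higher (*Ndufa13*; 4.8% of all genes) and 0 lower (8.29%) by edgeR, and 3 and 0 by DESeq2 (6.61% and 8.09% of all genes). Without saline 1 these counts were 0 and 7 (4.33% and 8.51% of all genes), without saline 2 they were 4 and 1 (8.05% and 11.3%), and without saline 3 they were 4 and 0 (4.4% and 4.87%). Without i.v. TLZ 2 they were 1 and 3 (5.16% and 8.68%), and without i.v. TLZ 3 they were 3 and 1 (5.09% and 7.8%). Leaving out i.v. TLZ 1 or any 1 of the NanoTLZ tumors gave 0 and 1 (3.57% to 4.01% and 5.68% to 6.47%). In these fits with a tumor left out, the share of members passed that of all genes only among lower genes for i.v. TLZ without saline 1 (5.88% of 102 members). All 6 treated tumors lay above all 3 saline tumors for 3 members (*Ndufa8*, *Ndufs3* and *mt-Nd4l*; 2.97% of 101, against 2.81% of all genes) and below them for 1 (*Ndufa10*; 0.99%, against 2.66% of all genes). With all tumors kept, these shares of members without overlap were near or under those of all tested genes.

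The median log2 fold change of the 89 nuclear members was -0.05 for i.v. TLZ (44 above and 45 below 0), 0.00 for NanoTLZ (45 and 44) and -0.00 for NanoTLZ against i.v. TLZ (44 and 45). Over all tested genes the medians were -0.03, -0.09 and -0.04. Without saline 1 the nuclear medians became -0.19 for i.v. TLZ and -0.15 for NanoTLZ, and without saline 3 they became 0.21 and 0.24. With transcripts of at least 1000 bases alone, an alternative chosen after seeing the data, the nuclear medians were -0.07 for i.v. TLZ and -0.10 for NanoTLZ. The median SE of a nuclear member was 0.378. For the 12 mitochondrial members the median was 0.29 for i.v. TLZ (10 above 0, 2 below), 0.09 for NanoTLZ (8 and 4) and -0.17 for NanoTLZ against i.v. TLZ (3 and 9), with a median SE of 0.365. Leaving out 1 tumor moved it between 0.16 and 0.35 for i.v. TLZ, to -0.03 without NanoTLZ 1 for NanoTLZ, and to 0.05 without NanoTLZ 3 for NanoTLZ against i.v. TLZ. Over the 7 mitochondrial members that near-identical copies do not cover by 90% or more, the median was 0.11 for i.v. TLZ (5 above, 2 below) and -0.09 for NanoTLZ (3 above, 4 below), an alternative chosen after seeing the data.

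**Figure D4:**
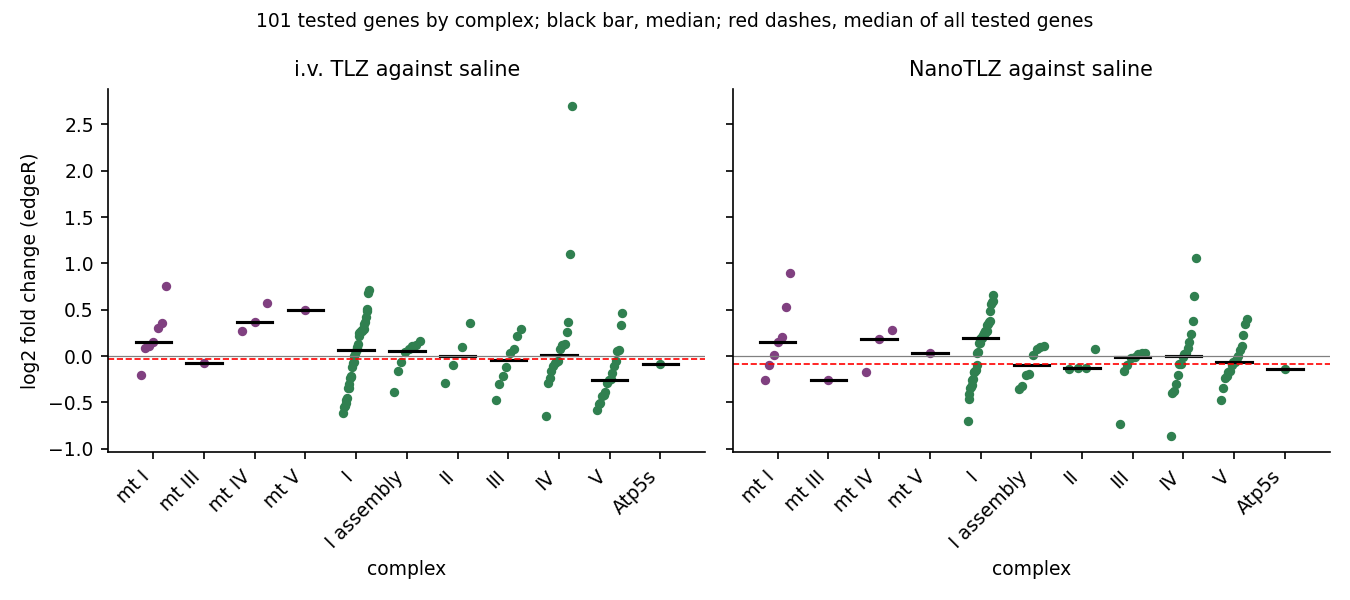
Log2 fold change against saline of the 101 tested genes by complex, for i.v. TLZ (left) and NanoTLZ (right), with mitochondrial genes in purple and nuclear genes in green, each complex's median as a black bar and the median of all tested genes as a red dashed line. Nuclear complex V has medians of -0.26 (i.v. TLZ) and -0.06 (NanoTLZ), and the highest point is *Cox6b2* at 2.70.

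Complex I accepts electrons from NADH. Its mitochondrial subunits form the membrane arm that pumps protons. *mt-Nd1*, the most abundant of them per length, was at 3126, 2735 and 1638 CPM in saline tumors, 2589.6, 2905 and 4108 CPM after i.v. TLZ, and 2813, 3676 and 2142 CPM after NanoTLZ. Saline 3 was lowest and i.v. TLZ 3 highest, and the groups overlapped. edgeR fitted log2 fold changes of 0.36 ± 0.39 for i.v. TLZ and 0.20 ± 0.39 for NanoTLZ, which were 0.14 and 0.0029 without saline 3, and 0.56 and 0.42 without saline 1. For *mt-Nd5* the levels were 2950.1, 1984 and 1154 CPM with saline, 1548, 2226 and 1526 CPM with i.v. TLZ, and 2439, 1729 and 1533 CPM with NanoTLZ, so that saline held both the highest and the lowest tumor. *mt-Nd2* ran from 788 CPM in saline 3 to 1547 CPM in i.v. TLZ 2, *mt-Nd4* from 871 CPM in saline 3 to 1757 CPM in i.v. TLZ 2, and *mt-Nd6*, the gene on the light strand, from 306 CPM in saline 3 to 546 CPM in i.v. TLZ 2. In these 3 genes saline 3 was the lowest and i.v. TLZ 2 the highest of the 9 tumors. *mt-Nd4l* was at 0.572, 0.477 and 0.734 CPM with saline, 1.07, 1.15 and 0.812 CPM with i.v. TLZ, and 1.2, 1.31 and 0.828 CPM with NanoTLZ. The 6 treated tumors exceeded each saline tumor, by 0.83 ± 0.44 on the log2 scale for the treated mean (edgeR adjusted p = 0.445), in a gene that a copy matches over 99.0% of its length. This level is uncertain, since *mt-Nd4l* had 10 to 25 counts per tumor and the copy, *Gm10222*, had 12 to 23. *mt-Nd3*, matched over 99.1%, ranged from 0.515 CPM in saline 1 to 1.75 CPM in NanoTLZ 2.

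Of the 36 nuclear subunits of complex I, the median on the log2 scale was 0.07 for i.v. TLZ (21 above 0, 15 below) and 0.19 for NanoTLZ (23 above, 13 below). Without saline 1 these became -0.14 and -0.03, and without saline 3 they became 0.25 and 0.34. *Ndufa13*, a subunit of the membrane arm also known as GRIM-19, was at 41.5, 85.5 and 60.0 CPM with saline, 116, 114 and 70.3 CPM with i.v. TLZ, and 85.8, 98.2 and 96.9 CPM with NanoTLZ. Of the treated tumors, i.v. TLZ 3 lay under saline 2 and the other 5 above every saline tumor. On the log2 scale the differences were 0.68 ± 0.32 for i.v. TLZ, 0.59 ± 0.32 for NanoTLZ and 0.63 ± 0.28 for the treated mean (edgeR adjusted p = 0.376). *Tssk6* overlaps 30.0% of *Ndufa13* on the opposite strand, and the strand setting of the counting was not given.

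*Ndufa8*, an accessory subunit on the side of the intermembrane space, was at 63.9, 82.0 and 82.7 CPM with saline, 110.1, 83.0 and 86.5 CPM with i.v. TLZ, and 85.7, 119 and 91.4 CPM with NanoTLZ. The groups did not overlap, although saline 3 and i.v. TLZ 2 nearly met, and the treated mean differed by 0.33 ± 0.22 on the log2 scale (edgeR adjusted p = 0.531). *Ndufs3*, a core subunit of the matrix arm, was at 41.9, 43.5 and 43.5 CPM with saline, 63.3, 52.0 and 51.0 CPM with i.v. TLZ, and 50.3, 56.3 and 47.2 CPM with NanoTLZ. Again no treated tumor fell within the range of saline, and the log2 difference of the treated mean was 0.31 ± 0.20 (edgeR adjusted p = 0.515), in a gene with near-identical copies over 75.7% of its transcript. *Ndufa10*, an accessory subunit of the membrane arm, went the other way, with 106, 98.5 and 108 CPM in saline tumors, 86.5, 67.5 and 92.5 CPM after i.v. TLZ, and 90.1, 96.0 and 75.4 CPM after NanoTLZ. All 6 treated tumors were below the saline tumors, by -0.30 ± 0.20 for the treated mean (edgeR adjusted p = 0.529).

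The groups overlapped in *Ndufa12*, *Ndufab1*, *Ndufa9* and *Ndufa5*, subunits with lower fitted levels after both treatments. *Ndufa12*, an accessory subunit of the matrix arm, was at 24.1, 37.0 and 69.1 CPM with saline, 32.7, 21.1 and 31.0 CPM with i.v. TLZ, and 25.7, 51.5 and 26.2 CPM with NanoTLZ. Its log2 fold change of -0.62 ± 0.43 for i.v. TLZ and -0.33 ± 0.43 for NanoTLZ rested on saline 3, without which they became -0.10 and 0.20. Copies cover 36.2% of its transcript. *Ndufab1*, the mitochondrial acyl carrier protein, was at 45.8, 61.2 and 137 CPM with saline, 48.6, 77.5 and 42.0 CPM with i.v. TLZ, and 51.5, 52.1 and 47.2 CPM with NanoTLZ. Saline 3 was again the high tumor, and the log2 fold change of -0.54 ± 0.41 for i.v. TLZ became 0.08 without it, while that of NanoTLZ was -0.70 ± 0.41 and became -0.06. *Ndufa9*, which lies at the junction of the arms, showed the same order among saline tumors, 49.2, 61.9 and 112 CPM, against 51.4, 72.9 and 38.3 CPM with i.v. TLZ and 55.1, 59.3 and 47.4 CPM with NanoTLZ. *Ndufa5* ranged from 15.1 CPM in saline 1 to 79.9 CPM in saline 3 and covered all treated tumors in between (18.2 to 53.8 CPM). In edgeR this gave -0.55 ± 0.55 for i.v. TLZ and -0.16 ± 0.55 for NanoTLZ, and 0.01 and 0.41 without saline 3.

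Among subunits with higher fitted levels, *Ndufa7* was at 38.5, 78.3 and 66.5 CPM with saline, 78.0, 119 and 59.3 CPM with i.v. TLZ, and 88.5, 111 and 90.1 CPM with NanoTLZ. All 3 NanoTLZ tumors were above the saline tumors, with a log2 fold change of 0.66 ± 0.34 (edgeR adjusted p = 0.578). *Ndufa3* was at 10.8, 50.6 and 41.8 CPM with saline, and at 29.8, 63.7 and 61.7 CPM with NanoTLZ, a log2 fold change of 0.59 ± 0.56 in which saline 1 was the low tumor and which was 0.19 without it. *Ndufb9*, the most abundant nuclear subunit of complex I per length (189 CPM per kilobase), ranged from 94.1 CPM in i.v. TLZ 3 to 193 CPM in saline 3. Its log2 fold change for i.v. TLZ was -0.23 ± 0.31, and 0.11 without saline 3.

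*Ndufs5*, a small accessory subunit, was at 1.66, 3.24 and 2.71 CPM with saline, 3.64, 5.30 and 3.52 CPM with i.v. TLZ, and 2.21, 6.06 and 3 CPM with NanoTLZ. All i.v. TLZ tumors lay above the saline tumors, with a log2 fold change of 0.71 ± 0.52 (edgeR adjusted p = 0.634). These levels are uncertain, since *Ndufs5* had 29 to 111 counts per tumor and the pseudogene *BC002163*, which matches 319 bases of it with 2 mismatches, had 278 to 879. The stretch that holds both mismatches is printed for the gene (GRCm38, chr4:123715959-123716039, minus strand, coding, exon 2 of 3) and for the pseudogene (chr16:42955671-42955751, plus strand, exonic), with the differing bases, T41C and A65G counted from the 5′ end, in capitals.
Ndufs5: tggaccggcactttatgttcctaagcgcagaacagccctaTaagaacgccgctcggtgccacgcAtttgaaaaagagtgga
BC002163: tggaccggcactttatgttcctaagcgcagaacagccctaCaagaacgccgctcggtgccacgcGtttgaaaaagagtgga

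**Figure D5:**
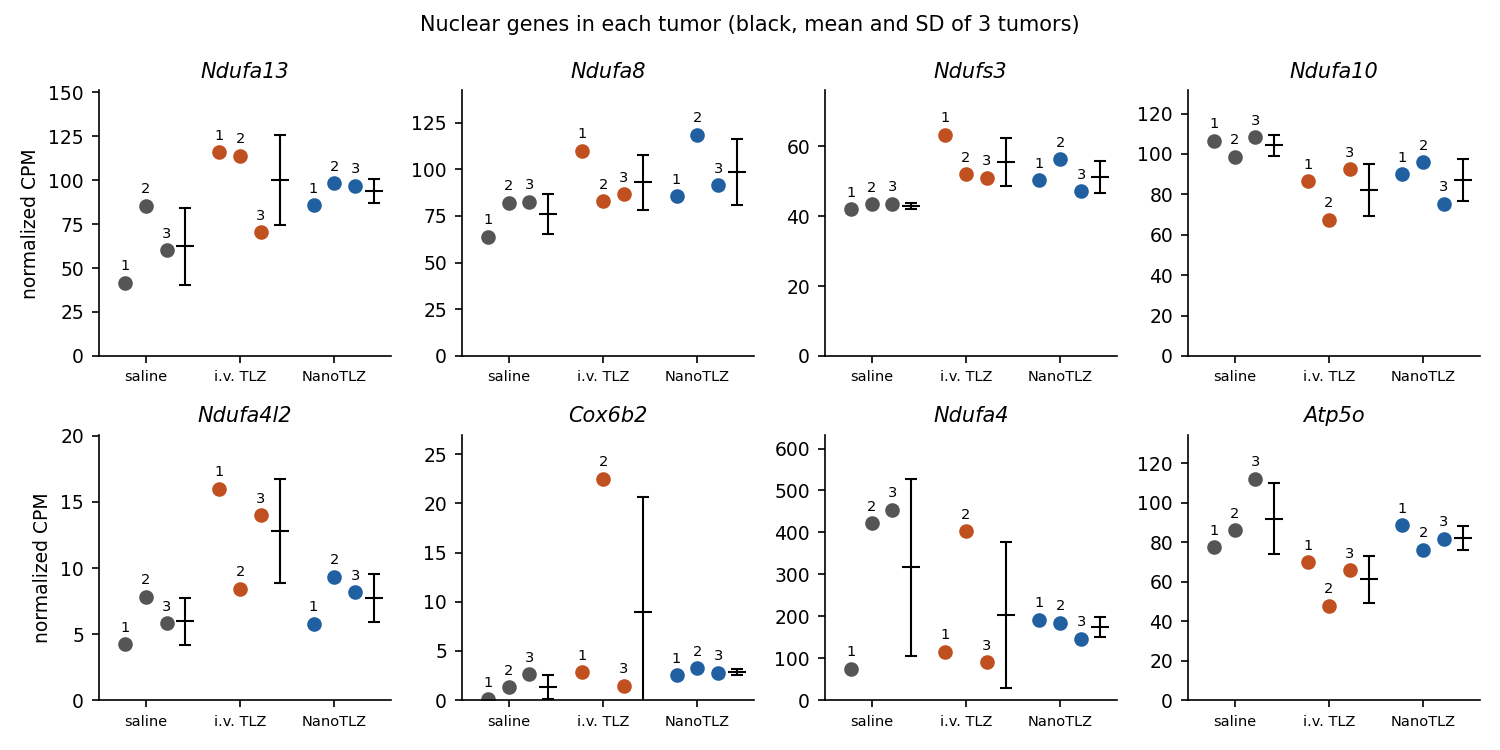
Level in normalized CPM of *Ndufa13*, *Ndufa8*, *Ndufs3*, *Ndufa10*, *Ndufa4l2*, *Cox6b2*, *Ndufa4* and *Atp5o* in each tumor (points by group), with the mean and SD of 3 tumors in black. *Ndufa8* and *Ndufs3* are above all saline tumors in the 6 treated tumors and *Ndufa10* below them, and *Cox6b2* reaches 22.5 CPM in i.v. TLZ 2.

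The 8 Ndufaf genes encode factors that help to assemble complex I. Their log2 fold changes had a median of 0.06 for i.v. TLZ (-0.09 without i.v. TLZ 1, 0.13 without saline 2) and -0.09 for NanoTLZ (-0.33 without NanoTLZ 2, -0.25 without saline 1, 0.05 without NanoTLZ 3 or without saline 3). *Ndufaf8*, the most abundant of them per length at 36.5 CPM per kilobase, was at 11.3, 45.8 and 23.9 CPM with saline, 30.1, 30.0 and 27.9 CPM with i.v. TLZ, and 20.3, 45.1 and 22.1 CPM with NanoTLZ. The range of saline held all treated tumors.

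Complex II, or succinate dehydrogenase, links the citric acid cycle to the electron transport chain. *Sdha*, its flavoprotein, was at 143, 82.9 and 223 CPM with saline, 140.3, 136 and 145 CPM with i.v. TLZ, and 129, 139 and 142 CPM with NanoTLZ. The 6 treated tumors lay close together between saline 2 and saline 3. Fitted log2 fold changes came to -0.09 ± 0.33 for i.v. TLZ and -0.13 ± 0.33 for NanoTLZ, and 0.33 and 0.30 without saline 3, in which chromosome 13, where *Sdha* lies, was high. *Sdhb*, the iron-sulfur subunit and the most abundant of the 4 per length (81.4 CPM per kilobase), was at 67.2, 122 and 61.8 CPM with saline, 116, 111 and 95.4 CPM with i.v. TLZ, and 81.8, 80.0 and 102 CPM with NanoTLZ. Saline 2 exceeded every treated tumor and the other saline tumors lay below them all, and log2 fold changes were 0.36 ± 0.30 for i.v. TLZ (0.73 without saline 2) and 0.07 ± 0.30 for NanoTLZ (0.45 without saline 2, -0.08 without saline 3). The membrane anchor *Sdhc* was at 111, 103 and 97.9 CPM with saline, 106, 75.7 and 73.8 CPM with i.v. TLZ, and 97.6, 95.2 and 92.6 CPM with NanoTLZ, with log2 fold changes of -0.29 ± 0.23 and -0.13 ± 0.23. All NanoTLZ tumors were below the saline tumors, in the case of NanoTLZ 1 by a small step. The other anchor, *Sdhd*, ranged from 53.6 CPM in saline 1 to 106 CPM in i.v. TLZ 3, and its log2 fold change of 0.10 ± 0.31 for i.v. TLZ became -0.22 without that tumor.

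Complex III passes electrons from ubiquinol to cytochrome c. *mt-Cytb*, its only mitochondrial subunit, was at 3852, 3679 and 3019.7 CPM with saline, 2676, 4020.2 and 3333 CPM with i.v. TLZ, and 3587, 3083 and 2181 CPM with NanoTLZ. The groups overlapped, with log2 fold changes of -0.07 ± 0.35 for i.v. TLZ (0.06 without i.v. TLZ 1) and -0.25 ± 0.35 for NanoTLZ. Of the 8 nuclear subunits, the median log2 difference was -0.04 for i.v. TLZ, -0.24 without saline 1, 0.28 without saline 3 and 0.02 under upper quartile scaling. For NanoTLZ it was -0.01, -0.37 without saline 1, 0.11 without saline 3 and 0.05 under upper quartile scaling. *Uqcrc2*, a core protein, was at 73.9, 82.1 and 166 CPM with saline, 70.2, 105 and 56.9 CPM with i.v. TLZ, and 67.6, 74.1 and 52.4 CPM with NanoTLZ. Saline 3 was the high tumor, and saline 1 lay just under NanoTLZ 2. Log2 fold changes were -0.73 ± 0.37 for NanoTLZ (edgeR adjusted p = 0.573) and -0.47 ± 0.37 for i.v. TLZ, which became -0.24 and 0.00 without saline 3. *Uqcrc1*, the other core protein, stayed between 85.6 CPM in i.v. TLZ 2 and 125 CPM in saline 1. The Rieske protein *Uqcrfs1*, on chromosome 13, was at 63.6, 56.7 and 124 CPM with saline against 70.3 to 97.8 CPM in the treated tumors. *Uqcrq*, the most abundant nuclear subunit of the complex per length (308 CPM per kilobase), was at 41.3, 159.7 and 162 CPM with saline, 144, 197 and 80.8 CPM with i.v. TLZ, and 100.1, 137 and 102 CPM with NanoTLZ. Here saline 1 was the low tumor, as it was for *Uqcr11* (22.1, 93.4 and 139 CPM with saline) and *Uqcrh* (54.4, 137 and 95.2 CPM with saline), all with short transcripts. The log2 fold change of *Uqcr11* for NanoTLZ was 0.03 ± 0.61, and -0.63 without NanoTLZ 2 and 0.61 without saline 3, and that of *Uqcrh* for i.v. TLZ was 0.29 ± 0.38 and -0.11 without i.v. TLZ 2.

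Complex IV, or cytochrome c oxidase, reduces oxygen to water, with a catalytic core of mitochondrial subunits. *mt-Co1*, the subunit that holds the oxygen site, was at 8899, 7903 and 6857 CPM with saline, 8625, 10355 and 9523 CPM with i.v. TLZ, and 7254, 8267 and 5504 CPM with NanoTLZ. All i.v. TLZ tumors were above all NanoTLZ tumors, while saline overlapped with both. edgeR fitted log2 fold changes of 0.27 ± 0.36 for i.v. TLZ, -0.17 ± 0.36 for NanoTLZ and -0.44 ± 0.36 for NanoTLZ against i.v. TLZ (edgeR adjusted p = 0.9999). *mt-Co2*, which takes electrons from cytochrome c, was at 10.4, 11.1 and 12.1 CPM with saline, 14.1, 20.3 and 15.6 CPM with i.v. TLZ, and 14.5, 16.5 and 9.73 CPM with NanoTLZ. The i.v. TLZ tumors were above the saline tumors, with a log2 fold change of 0.58 ± 0.33 (edgeR adjusted p = 0.552), and NanoTLZ 3 was below them. *mt-Co3* showed the same layout, with 10.1, 11.3 and 10.1 CPM for saline, 12.3, 15.1 and 13.3 CPM for i.v. TLZ, and 15.2, 12.7 and 7.97 CPM for NanoTLZ. Copies match both of these genes over nearly their full length.

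The 16 tested nuclear members of complex IV had a median log2 fold change of 0.01 for i.v. TLZ (-0.28 without saline 1, 0.39 without saline 3) and 0.01 for NanoTLZ (-0.30 and 0.42). *Cox6a1*, the most abundant of them per length (604 CPM per kilobase), was at 117, 397 and 604 CPM with saline, 343, 447 and 288 CPM with i.v. TLZ, and 218, 371 and 318 CPM with NanoTLZ. Saline 1 and saline 3 were the lowest and the highest tumor. On the log2 scale the differences were -0.05 ± 0.51 for i.v. TLZ and -0.30 ± 0.51 for NanoTLZ, and 0.49 and 0.26 without saline 3. *Cox6c* had the same extremes, with 105, 240.0 and 353 CPM for saline and 109.6 to 314 CPM over the treated tumors. *Cox8a* was at 66.0, 208 and 113 CPM with saline, 140.1, 216 and 144 CPM with i.v. TLZ, and 197, 203 and 207 CPM with NanoTLZ, where the NanoTLZ tumors lay within 10 CPM of each other and below saline 2 (log2 fold change 0.65 ± 0.39, edgeR adjusted p = 0.618; 0.36 without saline 1). *Ndufa4*, named for complex I but a subunit of complex IV, was at 74.6, 422 and 454 CPM with saline, 115, 403 and 90.6 CPM with i.v. TLZ, and 192, 185 and 147 CPM with NanoTLZ. Tumors fell into high (saline 2, saline 3 and i.v. TLZ 2) and low levels within groups, and log2 fold changes were -0.64 ± 0.68 for i.v. TLZ and -0.86 ± 0.69 for NanoTLZ (edgeR adjusted p = 0.694). These were -0.28 and -0.49 without saline 3, and -1.09 and -1.30 without saline 1. For i.v. TLZ the value was also -1.62 without i.v. TLZ 2 and -0.27 without i.v. TLZ 3.

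Some subunits of complex IV have isoforms restricted to certain tissues or conditions. *Ndufa4l2*, an isoform of *Ndufa4* known to be induced in hypoxia, was at 4.23, 7.82 and 5.83 CPM with saline, 16.0, 8.42 and 14.0 CPM with i.v. TLZ, and 5.78, 9.33 and 8.17 CPM with NanoTLZ. All i.v. TLZ tumors exceeded the saline tumors, i.v. TLZ 2 by little, and NanoTLZ overlapped with saline. Fitted log2 fold changes came to 1.10 ± 0.41 for i.v. TLZ (edgeR adjusted p = 0.443), 0.38 ± 0.41 for NanoTLZ and -0.72 ± 0.41 for NanoTLZ against i.v. TLZ. *Cox6b2*, the testis isoform of the subunit 6b, had 2, 28 and 57 counts in saline tumors, 58, 411 and 27 counts after i.v. TLZ, and 53, 59 and 54 counts after NanoTLZ. In CPM this was 0.114, 1.33 and 2.61, then 2.81, 22.5 and 1.46, then 2.55, 3.22 and 2.79. The log2 fold change of 2.70 ± 1.13 for i.v. TLZ (edgeR adjusted p = 0.460) thus came with 1 high tumor, i.v. TLZ 2, and 1 low tumor, saline 1, and the groups overlapped. It was 0.65 without i.v. TLZ 2, 2.19 without saline 1 and 3.61 without saline 3. *Cox4i2*, the isoform of subunit 4 found in lung, ranged from 0.229 CPM in saline 1 to 2.11 CPM in saline 3. Its log2 fold change for NanoTLZ was -0.39 ± 0.84, and 0.89 without saline 3. The heart and muscle isoform *Cox7a1* ranged from 0.866 CPM in i.v. TLZ 3 to 4.21 CPM in i.v. TLZ 2, with no separation of groups.

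*Cox8b*, another isoform of heart and skeletal muscle, had 2, 13 and 15 counts in the saline tumors, 0, 0 and 0 after i.v. TLZ, and 3, 0 and 0 after NanoTLZ. A count of 0 allows up to 3 counts, or 0.138 to 0.172 CPM depending on the tumor. *Cox7b2* and *Cox8c*, isoforms of testis, had 0 counts in all 9 tumors. *Cox6a2*, the muscle isoform left out by the rule for members, was at 0.286, 1.91 and 3.03 CPM with saline, 0.679, 0.984 and 0.325 CPM with i.v. TLZ, and 0.481, 0.655 and 0.621 CPM with NanoTLZ. Saline 2 and saline 3 were above the other 7 tumors, and the treated mean differed by -1.48 ± 0.64 on the log2 scale (edgeR adjusted p = 0.367; -0.80 without saline 3). Of the 8 isoforms in this list, *Cox6a2* included, 5 were tested and 0 passed for the treated mean by edgeR or DESeq2, with 0 higher and 1 lower unadjusted by edgeR (4.8% and 8.29% of all genes) and 2 and 1 by DESeq2 (6.61% and 8.09%). Leaving out 1 tumor gave 0 or 1 in each direction, with 1 higher and 0 lower without saline 2, saline 3 or i.v. TLZ 3.

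Markers of skeletal muscle were highest in saline 2 and saline 3, as *Cox8b* and *Cox6a2* were, while *Cox7a1* was highest in i.v. TLZ 2. The summed level of 14 muscle markers was 41.9, 222 and 711 CPM with saline, 52.5, 30.5 and 23.4 CPM with i.v. TLZ, and 34.1, 24.9 and 22.5 CPM with NanoTLZ. *Acta1*, the most abundant of them, was at 5.21, 68.7 and 231 CPM with saline and between 0 and 0.466 CPM in the treated tumors, and *Ckm* had 0 counts in i.v. TLZ 1 and NanoTLZ 2. Saline 1 did not follow 1 order, since *Cox6a2* was lowest there of all tumors, *Acta1* was above every treated tumor, and the muscle sum was below that of i.v. TLZ 1. Of the 13 markers tested, 10 were lower in the treated mean at an unadjusted p under 0.05 (8.29% of all genes), and 1, *Myl1*, had an adjusted p under 0.05 (edgeR, 0.0207), where DESeq2 called 8. Without saline 1 edgeR called 8, without saline 3 it called 1, and without saline 2 or any 1 of the treated tumors it called 0. Among all tested genes, edgeR called 3 with all tumors and DESeq2 called 278. By edgeR the count was 18 without saline 1, 3 without saline 3 and 0 without saline 2. It was 1 without NanoTLZ 1 and 0 without any other treated tumor. The part of muscle tissue in the levels of *Cox8b* and *Cox6a2* was not tested.

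Complex V is the ATP synthase. *mt-Atp6*, the channel subunit of its membrane part, was at 6.07, 7.39 and 7.34 CPM with saline, 8.05, 10.8 and 10.4 CPM with i.v. TLZ, and 7.85, 9.11 and 4.29 CPM with NanoTLZ. The i.v. TLZ tumors were above the saline tumors by 0.49 ± 0.39 on the log2 scale (edgeR adjusted p = 0.663), and NanoTLZ 3 was the lowest of all 9. *mt-Atp8*, the mitochondrial gene that overlaps *mt-Atp6*, had 0, 1 and 0 counts with saline, 4, 2 and 1 with i.v. TLZ, and 1, 0 and 2 with NanoTLZ, too few for a test.

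The 16 nuclear subunits of complex V had a median log2 fold change of -0.26 for i.v. TLZ (4 above 0, 12 below), -0.06 for NanoTLZ (6 above, 10 below; 0.01 under upper quartile scaling) and 0.16 for NanoTLZ against i.v. TLZ (13 above, 3 below; -0.05 without NanoTLZ 2, 0.29 without NanoTLZ 3). Without saline 3 the medians against saline became 0.07 for i.v. TLZ and 0.13 for NanoTLZ, and without saline 1 they became -0.41 and -0.19. *Atp5o*, which joins the catalytic head to the peripheral stalk (OSCP), was at 77.4, 86.1 and 112 CPM with saline, 69.8, 47.8 and 65.9 CPM with i.v. TLZ, and 88.5, 76.1 and 81.7 CPM with NanoTLZ. All i.v. TLZ tumors were below all other tumors, and i.v. TLZ 2 was the lowest. *Atp5o* lies on chromosome 16, where 441 other protein-coding genes had a median deviation of -0.84 in i.v. TLZ 2. That median was -0.04 in i.v. TLZ 1 and 0.20 in i.v. TLZ 3, and its part in the level of *Atp5o* was not tested. Log2 fold changes were -0.59 ± 0.26 for i.v. TLZ (edgeR adjusted p = 0.473), -0.16 ± 0.26 for NanoTLZ and 0.42 ± 0.26 for NanoTLZ against i.v. TLZ. *Gm15976* overlaps 18.1% of *Atp5o* on the opposite strand. *Atp5f1*, the b subunit of the peripheral stalk, was at 171, 205 and 281 CPM with saline, 173, 192 and 93.3 CPM with i.v. TLZ, and 180.3, 218 and 158 CPM with NanoTLZ. Only i.v. TLZ 3 lay well under the saline tumors, and the log2 fold change for i.v. TLZ was -0.52 ± 0.33 (edgeR adjusted p = 0.589), and -0.29 without saline 3.

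*Atp5e*, the epsilon subunit of the central stalk, was at 43.4, 159 and 148 CPM with saline, 184, 176 and 122 CPM with i.v. TLZ, and 136, 187 and 141 CPM with NanoTLZ. Its low tumor was saline 1, with log2 fold changes of 0.46 ± 0.44 for i.v. TLZ and 0.40 ± 0.44 for NanoTLZ that became 0.08 and 0.04 without it. *Atp5k*, the e subunit, was at 6.35, 61.6 and 57.2 CPM with saline and at 34.4 to 81.5 CPM in the treated tumors, so that saline 1 was low here as well. *Atp5j2* and *Atp5l*, the f and g subunits, were high in saline 3. *Atp5j2* was at 43.0, 172 and 345 CPM with saline, 123, 175 and 123 CPM with i.v. TLZ, and 136, 140.4 and 128 CPM with NanoTLZ. The fold changes of -0.41 ± 0.56 and -0.47 ± 0.56 on the log2 scale became 0.39 and 0.35 without saline 3. For *Atp5l* the saline tumors were at 44.6, 84.9 and 245 CPM and the treated tumors at 77.6 to 121 CPM, and log2 fold changes of -0.50 ± 0.52 for i.v. TLZ and -0.35 ± 0.52 for NanoTLZ became 0.46 and 0.63 without saline 3. *Atp5h*, the d subunit, had the highest level per length of the complex (419 CPM per kilobase). It was at 120.4, 325 and 180.0 CPM with saline and at 161 to 301 CPM in the treated tumors, copies match 99.8% of its transcript, and its log2 fold change for i.v. TLZ was -0.11 ± 0.39 and 0.36 without saline 2. *Atp5s*, counted apart, lay between 3.10 CPM in NanoTLZ 3 and 6.35 CPM in i.v. TLZ 1.

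Summed by complex, the nuclear subunits gave 2211 ± 608 CPM with saline, 2222 ± 354 CPM with i.v. TLZ and 2289 ± 382 CPM with NanoTLZ for complex I (mean ± SD, n = 3). Complex II gave 407 ± 50.8, 408 ± 27.5 and 383 ± 12.5 CPM, and complex III 722 ± 272, 700.2 ± 151 and 663 ± 131 CPM. Complex IV gave 2093 ± 993, 1985 ± 537 and 1990.2 ± 251 CPM, and complex V 2985 ± 769, 2664 ± 148 and 2864 ± 569.5 CPM. With all tumors kept, the difference between group means was smaller than the SD of the saline tumors in each of the 5 complexes. Saline 1 was the lowest and saline 3 the highest of all tumors in complexes I, III, IV and V, at 998 and 2936 CPM for complex IV. In these complexes the saline mean lay above both treated means without saline 1, and below both without saline 3. Without saline 1 the gaps exceeded the SD of the saline tumors left in complexes III, IV and V.

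Promoter windows from RefSeq (GRCm38.p6; 250 bases before to 50 bases after the transcript start) were matched for 76 of the 92 nuclear members, and shown because these genes lie on many chromosomes and a shared feature of their sequence was not used by the rule. Motifs of factors known to act on mitochondrial genes were searched on both strands, and 56 of the 76 held at least 1. The share of all genes with at least 1 was not taken, and the count includes the common SP1 motif, so it does not set the members apart. The NRF1 core GCGCATGCG was in 10 windows (13.2%, against 1.81% of 27025 genes), among them *Cox6a1*, *Ndufa8*, *Ndufa11*, *Uqcrc1*, *Uqcr11*, *Atp5g2*, *Atp5k* and *Atp5l*. The ETS core CCGGAAG was in 17 (22.4%, against 9.12%), among them *Ndufs3*, *Sdhb*, *Sdhd*, *Uqcrh*, *Cox6b1*, *Cox8a*, *Atp5e* and *Atp5h*. The YY1 motif AAGATGGCG was in 7 (9.21%, against 1.49%), namely *Atp5j2*, *Ndufa9*, *Ndufaf8*, *Ndufc1*, *Ndufs4*, *Ndufs6* and *Ndufs7*, each time in a position that reaches past the transcript start, since 0 of the 76 held it in the upstream bases alone. The ERRA motif AAGGTCA was in 8 (10.5%, against 4.66%) and the SP1 motif GGGCGG in 35 (46.1%, against 35.9%). A match describes the letters and is not a measured binding site. Windows are printed for *Cox6a1*, the most abundant nuclear gene of complex IV per length, and for *Ndufs6*, an accessory subunit of complex I. The *Cox6a1* window (chr5:115348909-115349208, minus strand) holds NRF1 matches on both strands that overlap, 1 ETS match and 2 SP1 matches, in capitals.
Cox6a1: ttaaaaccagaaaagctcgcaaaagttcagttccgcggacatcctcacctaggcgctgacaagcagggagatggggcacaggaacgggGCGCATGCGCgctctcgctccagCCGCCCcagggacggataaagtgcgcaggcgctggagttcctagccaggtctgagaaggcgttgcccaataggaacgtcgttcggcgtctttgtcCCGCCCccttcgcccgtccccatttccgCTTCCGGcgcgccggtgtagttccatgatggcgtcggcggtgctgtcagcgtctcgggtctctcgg
The *Ndufs6* window (chr13:73328433-73328732, minus strand) holds 1 YY1 match in capitals. *Ndufs6* itself was at 24.4, 53.8 and 178 CPM with saline and at 57.0 to 112 CPM in the treated tumors, which lay between saline 2 and saline 3.
Ndufs6: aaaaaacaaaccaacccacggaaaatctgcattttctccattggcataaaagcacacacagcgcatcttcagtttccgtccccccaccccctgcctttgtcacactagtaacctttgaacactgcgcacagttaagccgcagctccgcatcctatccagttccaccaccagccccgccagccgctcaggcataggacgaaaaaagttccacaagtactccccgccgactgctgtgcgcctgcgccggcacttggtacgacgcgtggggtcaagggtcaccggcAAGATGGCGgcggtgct
Members with no matched window included *Atp5a1*, *Atp5mpl*, *Cox4i1*, *Cox4i2*, *Cox6c*, *Cox8c*, *Ndufa2*, *Ndufa4l2*, *Ndufaf6*, *Ndufb9*, *Ndufs1*, *Sdhc*, *Uqcrb*, *Uqcrc2* and *Uqcrq*.

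Genes that assemble, feed or maintain the complexes were examined in the mean of both treated groups against saline, where 0 genes of the following lists passed an adjusted p of 0.05 by edgeR or DESeq2. At an unadjusted p under 0.05, 4.8% of all tested genes were higher and 8.29% lower in this comparison (edgeR), with 4.33% and 8.51% without saline 1, 8.05% and 11.3% without saline 2, and 4.4% and 4.87% without saline 3. By DESeq2 with all tumors they were 6.61% and 8.09%. Of 31 tested assembly factors of complexes II to V, 1 was higher and 1 lower at an unadjusted p under 0.05, by either tool, with a median log2 fold change of -0.17 (-0.29 without saline 1, 0.07 without saline 3). Leaving out 1 tumor moved these counts between 0 higher and 2 lower (without saline 1), 2 and 2 (without saline 2), 1 and 2 (without i.v. TLZ 3), and 1 and 0 (without i.v. TLZ 2 or NanoTLZ 3). *Surf1*, needed to build complex IV, was at 24.7, 31.1 and 31.9 CPM with saline, 51.2, 44.6 and 46.5 CPM with i.v. TLZ, and 41.9, 36.1 and 43.4 CPM with NanoTLZ. All 6 treated tumors were above the saline tumors, by 0.58 ± 0.21 on the log2 scale (edgeR adjusted p = 0.310). *Cox15*, which makes the heme of complex IV, was at 30.7, 35.5 and 57.2 CPM with saline, 25.2, 20.6 and 27.8 CPM with i.v. TLZ, and 31.3, 27.0 and 27.4 CPM with NanoTLZ, a log2 difference of -0.64 ± 0.25 (edgeR adjusted p = 0.347), and -0.30 without saline 3. *Sco2* and *Pet117* had 0 counts in all 9 tumors. Of the 7 tested assembly factors of complex I outside the rule for members, 0 were higher or lower unadjusted by either tool (median -0.20, with -0.34 without i.v. TLZ 1 and -0.095 without saline 3; 1 lower without saline 1 or without saline 2), and *Foxred1*, at 90.6 CPM in saline 3 and 9.82 to 20.3 CPM in the other 8 tumors, had a log2 difference of -1.27 ± 0.61, which was 0.53 without saline 3. *Tmem186* had -0.50 (edgeR adjusted p = 0.498; -0.19 without saline 3).

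Electron carriers and the genes of ubiquinone synthesis had a median of -0.29 over 16 genes (-0.41 without saline 2, 0.09 without saline 3), with 0 higher and 0 lower unadjusted by edgeR and 1 and 2 by DESeq2. Without saline 1, edgeR had 4 lower, without saline 3 it had 1 higher, and without saline 2, i.v. TLZ 2 or NanoTLZ 2 it had 1 lower. Cytochrome c (*Cycs*) was at 92.9, 88.3 and 124 CPM with saline, 56.2, 106 and 47.9 CPM with i.v. TLZ, and 65.1, 74.2 and 49.4 CPM with NanoTLZ. Of the treated tumors only i.v. TLZ 2 lay within the range of saline, and the log2 difference was -0.61 ± 0.29 (edgeR adjusted p = 0.399). *Coq8a*, of ubiquinone synthesis, had -0.87 ± 0.40 (edgeR adjusted p = 0.394; -0.39 without saline 3). Of 16 genes of the citric acid cycle and pyruvate dehydrogenase (median -0.20; -0.07 without saline 1), 2 were lower unadjusted by either tool, 0 without saline 3, and 1 without i.v. TLZ 1, i.v. TLZ 2 or any 1 of the NanoTLZ tumors. The 2 were *Suclg2*, a subunit of succinyl-CoA ligase (19.3, 23.3 and 71.5 CPM with saline, 6.17 to 23.0 CPM in treated tumors, -1.43 ± 0.48, edgeR adjusted p = 0.294, and -0.57 without saline 3), and *Idh3a*, a subunit of isocitrate dehydrogenase (65.7, 41.0 and 192 CPM with saline, 40.8 to 81.4 CPM in treated tumors, -0.93 ± 0.42, and -0.01 without saline 3).

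Regulators of mitochondrial biogenesis had a median of -0.12 over 10 tested genes (-0.27 without saline 2, 0.03 without saline 1), with 0 higher and 3 lower unadjusted by edgeR and 1 lower by DESeq2. Without saline 1 or without saline 3, edgeR had 0 lower and 1 higher, without NanoTLZ 1 it had 1 lower, and without i.v. TLZ 1, i.v. TLZ 2, NanoTLZ 2 or NanoTLZ 3 it had 0 in either direction. *Gabpa*, an ETS factor, was at 96.1, 42.5 and 63.5 CPM with saline, 34.2, 30.4 and 57.1 CPM with i.v. TLZ, and 48.0, 39.7 and 39.0 CPM with NanoTLZ (log2 difference -0.70 ± 0.30, edgeR adjusted p = 0.365). *Sp1* was at 213, 95.6 and 159 CPM with saline and at 78.0 to 120 CPM in treated tumors (-0.62 ± 0.27). Both were highest in saline 1, the tumor with the lowest nuclear sum, and without it the differences were -0.33 and -0.30. Genes that copy, transcribe and process the mitochondrial genome had a median of -0.29 over 18 genes (-0.53 without saline 2, -0.09 without saline 3), with 0 higher and 3 lower unadjusted by either tool, 5 lower without saline 1, 0 without saline 3 or NanoTLZ 1, and 1 without i.v. TLZ 1 or NanoTLZ 3. *Tfam*, which packs mitochondrial DNA and starts its transcription, was at 29.0, 38.0 and 91.4 CPM with saline, 21.9, 22.4 and 36.3 CPM with i.v. TLZ, and 24.7, 37.8 and 18.8 CPM with NanoTLZ. Its log2 difference was -0.97 ± 0.39 (edgeR adjusted p = 0.347), and -0.29 without saline 3, the tumor with the lowest mitochondrial deviations among the saline tumors. *Supv3l1*, a helicase of mitochondrial RNA decay, had -0.92 ± 0.34 (edgeR adjusted p = 0.325; -0.45 without saline 3).

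Proteins of the mitochondrial ribosome had a median of -0.14 over 76 genes (-0.26 without saline 1, 0.08 without saline 3), with 0 higher and 2 lower unadjusted by either tool, 8 lower without saline 1, 2 higher and 2 lower without saline 2, and 5 higher and 0 lower without saline 3. Without i.v. TLZ 2, i.v. TLZ 3 or NanoTLZ 2, 1 was lower, and without NanoTLZ 1 or NanoTLZ 3, 0 were. *Mrpl39* was at 42.4, 30.3 and 36.9 CPM with saline, 27.7, 21.3 and 27.6 CPM with i.v. TLZ, and 26.5, 23.4 and 25.9 CPM with NanoTLZ. All treated tumors lay below the saline tumors, by -0.53 ± 0.22 (edgeR adjusted p = 0.361). *Mrpl19* had -0.71 ± 0.30 (edgeR adjusted p = 0.358; -0.39 without saline 3), and *Mrpl53* had 0 counts in all tumors. Of 5 tested genes for the inhibitor of ATP synthase, uncoupling proteins and ADP/ATP carriers (median 0.02; -0.48 without saline 2, 0.28 without NanoTLZ 3), 0 were higher or lower unadjusted by either tool. Without saline 1 or i.v. TLZ 2, 1 was lower, and without saline 2, 2 were. The carrier *Slc25a4* was at 299.8, 254 and 659 CPM with saline, 143, 291 and 229 CPM with i.v. TLZ, and 242, 273 and 277 CPM with NanoTLZ (-0.74 ± 0.34, edgeR adjusted p = 0.391), and *Slc25a5* had -0.46 ± 0.26. Without saline 3 these became -0.17 and -0.23.

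Other cell types were followed by their markers, for the treated mean against saline, in which 4.8% of all tested genes were higher and 8.29% lower unadjusted by edgeR, and 6.61% and 8.09% by DESeq2. Proliferation genes were lower in 10 of 12 at an unadjusted p under 0.05 (edgeR and DESeq2; 7 without saline 1, 4 without saline 3), with 0 called by edgeR and 2 by DESeq2. Their summed level was 1642, 908 and 2669 CPM with saline, 471, 611 and 970.1 CPM with i.v. TLZ, and 839.0, 683 and 733 CPM with NanoTLZ, with *Mki67* the most abundant (286, 101 and 940 CPM with saline, 54.3 to 160 CPM in treated tumors, which hold saline 2 in their range; -2.17, and -0.96 without saline 3) and *Top2a* at -1.55 ± 0.24 (edgeR adjusted p = 0.0915). Luminal markers summed to 14065, 5068 and 5135 CPM with saline, 8591, 6069 and 5256 CPM with i.v. TLZ, and 5425, 5168 and 4139 CPM with NanoTLZ. Of 8, *Elf5* was lower unadjusted (-1.01 ± 0.24, edgeR adjusted p = 0.271; 3 lower without saline 3; 1 called by DESeq2), *Wfdc18* had -0.83 (-0.06 without saline 3), and *Ltf* was the most abundant. Basal markers, led by *Krt14*, summed to 1358, 964 and 3629 CPM with saline, 3017, 302 and 1174 CPM with i.v. TLZ, and 1237, 1273 and 721 CPM with NanoTLZ. Of 6, 2 were lower unadjusted by edgeR and 0 by DESeq2, with 4 without saline 1 or saline 2, 0 without saline 3, and 1 without i.v. TLZ 1, NanoTLZ 1 or NanoTLZ 2. These were *Krt5*, at 1849 CPM in saline 3 and 2.30 to 72.9 CPM in the other 8 tumors, and *Oxtr*, and without saline 3 their log2 differences turned from -5.39 and -2.85 to 1.90 and 1.22.

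Fibroblast markers, led by *Col1a1*, summed to 2008, 1372 and 1371 CPM with saline, 5890, 949.96 and 2432 CPM with i.v. TLZ, and 3002, 2438 and 1624 CPM with NanoTLZ. Of 6, *Pdgfra* (1.06) and *Dcn* (1.90; 1.21 without NanoTLZ 2) were higher unadjusted by edgeR and DESeq2, 0 were without saline 3, 1 without saline 1 or saline 2, and 4 without i.v. TLZ 2. Endothelial markers, led by *Pecam1*, summed to 96.8, 119 and 59.2 CPM with saline, 135, 57.9 and 61.2 CPM with i.v. TLZ, and 127, 147 and 119.9 CPM with NanoTLZ, with 0 of 5 different unadjusted by either tool (*Emcn* 0.51, with 0.26 without saline 3 and 0.99 without saline 2, and *Kdr* 0.31, with 0.10 without i.v. TLZ 1). Leukocyte markers, led by *Csf1r*, summed to 278, 599 and 154 CPM with saline, 601, 235 and 486 CPM with i.v. TLZ, and 631, 538 and 769 CPM with NanoTLZ. By either tool 0 of 7 were different unadjusted, 4 were higher without saline 2 and 1 without i.v. TLZ 2 (*Cd68* 0.65 and *Csf1r* 0.80 with all tumors, 1.01 and 1.62 without saline 2, and 0.47 for *Csf1r* without saline 3). Erythroid markers, led by *Hbb-bs*, summed to 23.2, 27.4 and 59.5 CPM with saline, 22.2, 11.5 and 3.14 CPM with i.v. TLZ, and 1.40, 5.95 and 8.69 CPM with NanoTLZ, and 2 of 4 tested were lower unadjusted by either tool (*Hbb-bs* -2.42, *Hba-a1* -2.30), 1 called by DESeq2, with 3 without saline 1 or saline 2 and 1 without saline 3. Adipocyte markers, led by *Lipe*, summed to 29.9, 23.2 and 43.1 CPM with saline, 32.2, 32.1 and 20.9 CPM with i.v. TLZ, and 83.5, 26.1 and 21.9 CPM with NanoTLZ, with 0 of 4 tested different unadjusted by either tool (*Cidea* -1.24 and *Lipe* 0.40, which turned to 0.31 and -0.0033 without saline 3; *Lipe* 0.93 without saline 1). The part of these cell types in the levels of the oxidative phosphorylation genes was not tested.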

How the data were processed

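The deposited count table held whole-number counts per gene for 9 tumors, 3 in each of 3 groups given by the labels. TopHat2, DESeq2 and the mm10 build are named in the submitters' processing notes, while the counting program, annotation, strand setting and treatment of reads with several matches were not given in the sources used here. Symbols were taken from GENCODE M21 (GRCm38) for 34490 of 35275 identifiers, and 785 had none. Members and lists were chosen with earlier results of these data known.

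Counts were filtered with filterByExpr (minimum count 10, minimum total 15), scaled by TMM and fitted with edgeR 4.0.16 (quasi-likelihood, 1 coefficient per group, all 9 tumors, R 4.3.3, limma 3.58.1), with Benjamini-Hochberg adjustment over 15821 genes. The SE is the log2 fold change divided by the square root of F. The fits were tested on simulated data. Near-identical copies were sought with BLAST 2.17.0 among the annotated transcripts, and overlapping genes on either strand were listed. Levels per length use the shortest transcript tagged as basic and as principal isoform. Sums, shares and intervals were computed in Python 3.11.15 with pandas 2.3.3, scipy 1.17.1 and numpy 2.4.6, and plots drawn with matplotlib 3.10.9. Deviations of a tumor used log2 CPM with 2 counts added.

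Named members were all mitochondrial genes, the 4 genes of complex II, the 2 members of each other complex with the highest and the 2 with the lowest log2 fold change in each treated group against saline, the most abundant member of each complex per length, those with an adjusted p under 0.05 or with groups that did not overlap, and the restricted isoforms. Of every other list, the 2 genes of smallest unadjusted p were named. *Ndufs6*, *Ckm*, *Krt8*, *Krt18*, *Epcam* and the genes named for a motif, a copy, a count of 0 or as most abundant of a list fall outside this rule and were chosen after their values were seen.

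Alternatives were DESeq2 1.42.0, fits of the groups compared only, RLE and upper quartile scaling, no filter, 10 counts in every tumor, scaling without mitochondrial genes, subunits only, other summaries of the shares, and each tumor left out in turn. Leaving out members with copies, those on chromosome 13 or those with transcripts under 1000 bases was added after seeing the data. Members outside the rule for names are given by counts, sums and medians, and 1 item is not reported here.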

Additional observations from a re-analysis of the deposited data

How the results depend on the processing

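The fold changes of 51 named members, 102 in all, had 1728 values under the alternatives. Of these, 1628 kept the direction, 100 turned, 19 of them by more than 1 SE, and 0 passed the threshold. Of 313 values of 26 other results (members called, medians, log2 differences of shares and motif counts), 311 moved by less than the spread between tumors or within 1.5 times the count, and 0 members were called under any alternative. This is no sign of a stable direction, since 46 of 242 values of 17 medians and log2 differences had the other sign. Member counts at an unadjusted p under 0.05 are not among the 26 and moved with the tumor left out, for i.v. TLZ from 2 higher and 1 lower to 0 and 6 (without saline 1) or 5 and 0 (without saline 3), and for the treated mean from 1 and 0 to 0 and 7 or 4 and 0. At an unadjusted p under 0.05 for i.v. TLZ, edgeR on the groups compared only gave 0 higher and 0 lower. Searching the upstream bases alone moved the YY1 count from 7 to 0 and the ERRA count from 8 to 5, since fewer bases were searched.

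On leaving out 1 tumor, 92 values of 53 fold changes turned, 29 of them without saline 3, 18 without saline 1, 9 each without NanoTLZ 2 or i.v. TLZ 2 and 8 without saline 2. The lowest and highest log2 values over the tumors left out follow. For i.v. TLZ they were those of *Atp5h* (-0.38 to 0.36), *Atp5j2* (-0.87 to 0.39), *Atp5k* (-0.16 to 0.73), *Atp5l* (-0.89 to 0.46), *Atp5s* (-0.41 to 0.11), *Cox4i2* (-0.31 to 1.39), *Cox6a1* (-0.46 to 0.49), *Cox6c* (-0.86 to 0.15), *Cox7a1* (-0.76 to 0.31), *Ndufa3* (-0.15 to 0.65), *Ndufa5* (-1.0 to 0.015), *Ndufab1* (-0.85 to 0.0797), *Ndufaf8* (-0.24 to 0.73), *Ndufb9* (-0.37 to 0.11), *Sdha* (-0.38 to 0.33), *Sdhd* (-0.22 to 0.29), *Uqcr11* (-0.74 to 0.26), *Uqcrc2* (-0.76 to 0.0043), *Uqcrfs1* (-0.17 to 0.49), *Uqcrh* (-0.11 to 0.64), *Uqcrq* (-0.18 to 0.51), *mt-Cytb* (-0.23 to 0.063), *mt-Nd2* (-0.12 to 0.28), *mt-Nd4* (-0.12 to 0.24), *mt-Nd5* (-0.47 to 0.18) and *mt-Nd6* (-0.021 to 0.29). For NanoTLZ they were those of *Atp5f1* (-0.36 to 0.0099), *Atp5h* (-0.32 to 0.48), *Atp5j2* (-0.91 to 0.35), *Atp5k* (-0.13 to 0.74), *Atp5l* (-0.71 to 0.63), *Atp5o* (-0.24 to 0.035), *Atp5s* (-0.25 to 0.082), *Cox4i2* (-0.81 to 0.89), *Cox6a1* (-0.70 to 0.26), *Cox6c* (-0.52 to 0.25), *Ndufa12* (-0.71 to 0.20), *Ndufa5* (-0.56 to 0.41), *Ndufaf8* (-0.32 to 0.73), *Ndufb9* (-0.084 to 0.40), *Sdha* (-0.42 to 0.30), *Sdhb* (-0.079 to 0.45), *Sdhd* (-0.26 to 0.037), *Uqcr11* (-0.63 to 0.61), *Uqcrfs1* (-0.16 to 0.51), *Uqcrh* (-0.26 to 0.35), *Uqcrq* (-0.47 to 0.20), *mt-Atp6* (-0.16 to 0.32), *mt-Co1* (-0.27 to 0.0096), *mt-Co3* (-0.022 to 0.44), *mt-Nd2* (-0.21 to 0.20), *mt-Nd5* (-0.35 to 0.30) and *mt-Nd6* (-0.0052 to 0.36). The cause was not tested.

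Another 35 fold changes kept their sign but moved by over 1.5 times with a tumor left out, and 14 moved by less. For i.v. TLZ these were *Atp5e* (0.078 to 0.75), *Atp5f1* (-0.72 to -0.25), *Cox6b2* (0.65 to 3.61), *Cox8a* (0.066 to 0.90), *Ndufa10* (-0.43 to -0.22), *Ndufa12* (-0.90 to -0.10), *Ndufa4* (-1.62 to -0.27), *Ndufa7* (0.17 to 0.70), *Ndufa8* (0.15 to 0.37), *Ndufa9* (-0.73 to -0.023), *Sdhb* (0.19 to 0.73), *Sdhc* (-0.48 to -0.18), *Uqcrc1* (-0.28 to -0.011), *mt-Nd1* (0.14 to 0.56) and *mt-Nd3* (0.012 to 0.54). For NanoTLZ these were *Atp5e* (0.038 to 0.69), *Cox6b2* (0.56 to 1.97), *Cox7a1* (-1.04 to -0.082), *Cox8a* (0.36 to 1.18), *Ndufa10* (-0.30 to -0.13), *Ndufa13* (0.39 to 0.88), *Ndufa3* (0.19 to 0.98), *Ndufa4* (-1.30 to -0.49), *Ndufa4l2* (0.21 to 0.63), *Ndufa9* (-0.66 to -0.015), *Ndufab1* (-0.95 to -0.062), *Ndufs5* (0.07 to 0.84), *Sdhc* (-0.14 to -0.048), *Uqcrc1* (-0.27 to -0.032), *Uqcrc2* (-0.91 to -0.24), *mt-Co2* (0.15 to 0.50), *mt-Cytb* (-0.42 to -0.044), *mt-Nd1* (0.0029 to 0.42), *mt-Nd3* (0.25 to 0.79) and *mt-Nd4* (-0.52 to -0.091).

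The other 8 turns were in fold changes for NanoTLZ near 0. *Uqcrh* (-0.0043) became 0.014 with DESeq2 on all 9 tumors, 0.011 with DESeq2 on the groups compared, 0.014 with RLE scaling, 0.059 with upper quartile scaling, 0.024 with scaling without mitochondrial genes, 0.011 with no filter and 0.013 with 10 counts required in every tumor. *mt-Nd5* (-0.094) became 0.0086 with upper quartile scaling. The cause was not tested.

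With a tumor left out, the median of the nuclear members ran from -0.19 to 0.21 for i.v. TLZ and from -0.15 to 0.24 for NanoTLZ, and that of the mitochondrial members from 0.16 to 0.35 and from -0.03 to 0.34. No paired analysis was possible because replicate numbers are not shared between groups in the labels. Where a gene had 0 counts in a tumor, the depth allows no statement on levels under 0.138 to 0.172 CPM, depending on the tumor.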
